A study of Mus musculus with 18 samples.

Results

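Nuclear factor kappa B (NF-κB) genes were followed in mouse embryonic fibroblasts, the connective tissue cells that grow out of a minced embryo. The set was named as 10 genes that encode subunits of the factor or proteins that hold it in check: Tnfaip3, Nfkbia, Nfkbiz, Nfkbie, Nfkb1, Nfkb2, Rela, Relb, Birc3 and Bcl3. The probe annotation used gave a probe set for 9 of them, out of 18194 genes with a probe set, and Nfkb1 was not analysed here. Each gene was read from 1 probe set, the brightest on average across the 18 arrays. All 9 passed the filter on dim genes, as did 13728 genes in all. There were 3 genotypes: wild type (WT), cells without the transcription factor gene Atf4 (Atf4-/-) and cells without the transcription factor gene Cebpg (Cebpg-/-), all from embryos at E13.5 and used at passage 3. After 24 h on the plate they spent 3 h in normal medium or in a supplemented Krebs-Ringer salt buffer without amino acids, the AAD (amino acid deprivation) medium. With 3 Affymetrix arrays per combination there were 6 groups. Whether the 3 replicates of a group are separate embryos is not given in the labels, and p-values therefore cover only the spread among these samples, which may be technical.

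NF-κB is a pair of Rel-type subunits that waits in the cytoplasm bound to an inhibitor of the IκB family. Signals from cytokine and pattern receptors activate a kinase complex that marks the inhibitor for destruction, and the freed pair enters the nucleus and binds κB sites. Many of the genes switched on encode its own inhibitors, so that the signal ends itself, and a slower, non-canonical branch runs through the processing of the Nfkb2 product and its partner RelB. In fibroblasts the pathway is known for driving chemokine and cytokine genes.

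The starts of these genes often carry κB sites themselves, which is why 4 of them are shown. In RefSeq promoter windows (GRCm38.p6, 250 bases before to 50 after each start), 7 of the set had an entry: Tnfaip3, Nfkbia, Nfkbie, Nfkb2, Rela, Birc3 and Bcl3. The κB consensus, searched on both strands, occurred in at least 1 window of 5 of these 7 genes, and in 9.55% of all 27025 genes in that table (8.46% of all 32851 windows). Tnfaip3 and Nfkb2 had more than 1 window, and a count over any window favours such genes. For each gene 1 window is shown, and another Tnfaip3 window held no κB match. The stretches below are the 250 bases before a start, 5′ to 3′ on the gene's strand, with each match to the κB consensus in capitals.
Tnfaip3, chr10:19015411-19015660, minus strand: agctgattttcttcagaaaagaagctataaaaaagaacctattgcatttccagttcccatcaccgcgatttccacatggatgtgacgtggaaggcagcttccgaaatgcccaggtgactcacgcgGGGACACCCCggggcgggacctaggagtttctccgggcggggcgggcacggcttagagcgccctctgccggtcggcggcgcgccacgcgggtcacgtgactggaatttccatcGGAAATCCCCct
Nfkbia, chr12:55492648-55492897, minus strand: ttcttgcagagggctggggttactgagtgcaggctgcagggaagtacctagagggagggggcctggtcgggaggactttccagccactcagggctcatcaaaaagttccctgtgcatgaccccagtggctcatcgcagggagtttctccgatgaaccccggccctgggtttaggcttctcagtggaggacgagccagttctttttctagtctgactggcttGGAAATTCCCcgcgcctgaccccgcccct
Nfkb2, chr19:46304487-46304736, plus strand: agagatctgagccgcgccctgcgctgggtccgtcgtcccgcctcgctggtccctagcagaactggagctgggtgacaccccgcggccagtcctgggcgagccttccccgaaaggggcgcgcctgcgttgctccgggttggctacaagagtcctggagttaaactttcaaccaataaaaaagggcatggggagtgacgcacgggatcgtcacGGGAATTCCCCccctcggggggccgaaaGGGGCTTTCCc
Nfkbie, chr17:45555450-45555699, plus strand: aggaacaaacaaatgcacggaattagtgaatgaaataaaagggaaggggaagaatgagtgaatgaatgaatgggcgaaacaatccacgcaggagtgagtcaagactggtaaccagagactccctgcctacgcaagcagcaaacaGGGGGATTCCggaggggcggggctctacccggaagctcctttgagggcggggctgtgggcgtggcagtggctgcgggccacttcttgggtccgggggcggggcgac
The Tnfaip3 stretch held 2 matches, of which the nearer, GGAAATCCCC, began 12 bases before the start. Nfkbia held GGAAATTCCC from 29 bases before its start. Nfkb2 held 2 capital stretches, from 39 and 11 bases before its start, and Nfkbie a single match, GGGGGATTCC, from 106 bases before. Bcl3 had its match, GGGAAGTCCC, just past the start, and the windows of Rela and Birc3 had none. Of the other motifs searched on both strands, the AP-1 site (TGANTCA) occurred at 3 of the 7 genes, Tnfaip3, Nfkbie and Nfkb2, against 8.97% of all genes. The C/EBP-ATF composite element (TGATGNAA) occurred at 1 of the 7, in the window of another Tnfaip3 start, against 4.51% of all genes. The CRE (TGACGTCA) occurred at none of the 7, against 2.03%. No κB match overlapped a match to another motif. A match is a description of the letters in these windows and not evidence that a factor binds there.

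Levels are the deposited log2 values, so that 1 unit is a doubling, and errors are standard deviations (SD) for levels and standard errors (SE) for changes, with n = 3 arrays per group. Array medians lay between 5.21 and 5.27, and the number of arrays limits the precision of every value. Atf4 read 12.10 ± 0.07 in WT and 6.50 ± 0.16 in Atf4-/- cells in normal medium. Cebpg differed by only 0.05 (adjusted p = 0.805) between Cebpg-/- and WT cells there, so the probe set read does not check that deletion. All 10 fibroblast markers read above 4.65, the level under which genes counted as dim, in every group. Of 12 macrophage markers, 10 to 12 also read above it in each group; macrophages are known to use this pathway. Their summed linear level was 4722 to 4885 in WT in normal medium and 3034 to 3306 in AAD medium. It was 8096 to 10660 and then 5339 to 7641 in Atf4-/-, and 10660 to 14360 and then 6245 to 8509 in Cebpg-/-. Of 5 epithelial markers, 4 read above 4.65 in every group and Cdh1 did not. Of 5 endothelial markers, Kdr alone did, while Pecam1, Cdh5, Tek and Tie1 were under it in all groups. Kdr rose under AAD in WT (0.93 ± 0.08) and had a lower response in Atf4-/- (-0.66 ± 0.11, adjusted p = 0.00068), and its part in the results was not tested.

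The first question was which of these genes WT fibroblasts change in AAD medium. That medium is a salt buffer, so the loss of amino acids and any other difference from normal medium cannot be told apart. In WT 7 of 9 rose under AAD, none fell and 2 did not pass (limma, Benjamini-Hochberg adjusted p under 0.05 over all genes tested), at a median change of 0.56. Over all genes 14.3% rose and 28.2% were called in either direction, and the median change was -0.01. The set and the lists below were chosen with earlier results of these data known. Their shares, here and below, are therefore a description and not a test of the set. The rises covered both arms of the system: the ubiquitin-editing enzyme gene Tnfaip3 and the inhibitor gene Nfkbia more than doubled, and the subunit genes Rela, Relb and Nfkb2 rose with them. Nfkbiz and Nfkbie, which encode a nuclear and a cytoplasmic IκB-type protein, were not called. In the same cultures 2 of 12 macrophage markers fell, 1 rose and 9 did not pass. Their linear sum, which the brightest of them dominate, was lower in AAD medium on every array, while their mean log2 level went from 7.29 to 7.25. In Atf4-/- the sum was lower too and the mean log2 level went from 7.72 to 7.84. The part of these markers in the result was not tested. In bulk samples, fewer cells of a type and less RNA per cell cannot be told apart. For the 7 genes the media did not overlap, as for 42.4% of all genes.

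**Figure D1:**
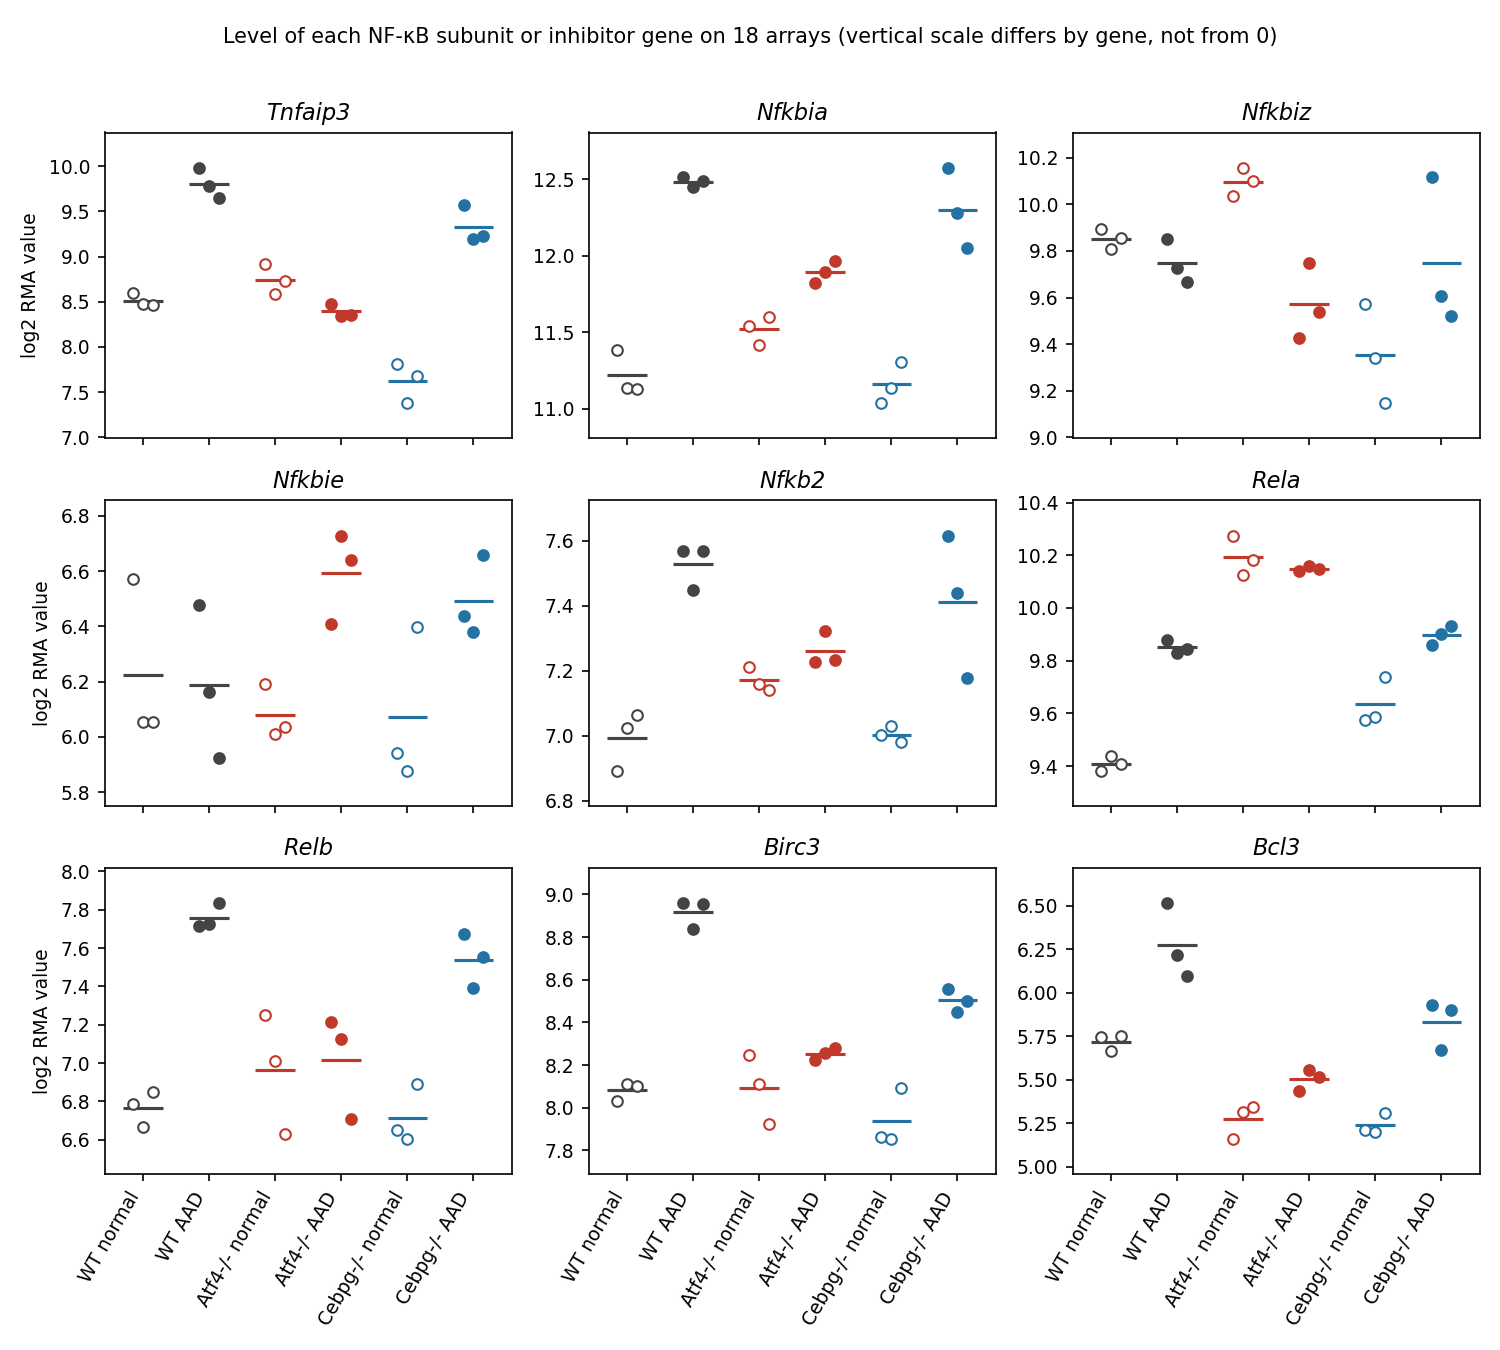
Log2 RMA value of each of the 9 genes (vertical axes, each with its own range) on the 18 arrays, by genotype and medium. Points are arrays, open for normal and filled for AAD medium, and lines are group means. Tnfaip3 on the WT arrays moves from between 8.46 and 8.60 to between 9.65 and 9.98, whereas the Atf4-/- arrays do not rise.

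Tnfaip3 encodes A20, a ubiquitin-editing enzyme that shuts off signalling upstream of the kinase complex. In WT it read 8.60, 8.48 and 8.46 in normal medium and 9.98, 9.79 and 9.65 in AAD medium, a rise of 1.29 ± 0.12 (2.45-fold, adjusted p = 9.59e-07). In Atf4-/- it read 8.92, 8.59 and 8.73 and then 8.48, 8.35 and 8.36. The groups did not overlap in either genotype, but they lay in opposite order. In Cebpg-/- it read 7.81, 7.38 and 7.68 and then 9.58, 9.19 and 9.22, a rise of 1.71 ± 0.12 (adjusted p = 6.99e-08) from the lowest starting level of the 3 genotypes. The change in Atf4-/- was -0.35 ± 0.12 (adjusted p = 0.137), and with the replicate block, which compares arrays of the same genotype and number, it was called (SE 0.06, adjusted p = 0.00681). Ordered by mean, the levels ran WT AAD, Cebpg-/- AAD, Atf4-/- normal, WT normal, Atf4-/- AAD and Cebpg-/- normal. Of the neighbours in that order, only the arrays of Atf4-/- normal and WT normal, and of WT normal and Atf4-/- AAD, overlapped.

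Birc3 encodes cIAP2, a ubiquitin ligase that sits with TRAF2 at TNF-type receptors. Its WT arrays read 8.03, 8.11 and 8.10 in normal and 8.96, 8.84 and 8.96 in AAD medium, a rise of 0.84 ± 0.08 (adjusted p = 7.9e-07). The 3 Cebpg-/- arrays read 7.86, 7.86 and 8.09 and then 8.56, 8.45 and 8.50, a rise of 0.57 ± 0.08 (adjusted p = 7.62e-05). In both genotypes every AAD array lay above every normal array. In Atf4-/- the normal arrays read 8.25, 8.11 and 7.92 and the AAD arrays 8.22, 8.26 and 8.28, which overlapped, and the change was 0.16 ± 0.08 (adjusted p = 0.333). Its second probe set, with group means from 4.78 to 4.98, was not called in WT (0.17 ± 0.11) or Cebpg-/- (-0.10 ± 0.11), nor in the difference between Atf4-/- and WT (-0.11 ± 0.16, adjusted p = 0.753). With the mean of both probe sets the rise in Cebpg-/- was 0.23 and lost its call (adjusted p = 0.0534), as did the difference between the knockouts given further on (-0.13, adjusted p = 0.659).

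Nfkbia encodes IκBα, the main cytoplasmic inhibitor and the best known feedback target of the pathway. WT arrays read 11.39, 11.13 and 11.13 in normal and 12.51, 12.45 and 12.49 in AAD medium, a rise of 1.27 ± 0.11 (2.40-fold, adjusted p = 3.48e-07). In Cebpg-/- they read 11.04, 11.13 and 11.31 and then 12.57, 12.28 and 12.05, a rise of 1.14 ± 0.11 (adjusted p = 1.64e-06). Neither pair of groups overlapped. The Atf4-/- arrays read 11.54, 11.42 and 11.60 and then 11.82, 11.89 and 11.97, again without overlap, and the change was 0.38 ± 0.11 (adjusted p = 0.0654). All 5 Nfkbia probe sets were above 0 in Atf4-/- (0.33 to 0.50) and 2 of them were called, against 3.57% of all probe sets tested. In WT all 5 rose, by 1.22 to 1.51, where 26.2% of all probe sets were called.

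Nfkbie encodes IκBε, a cytoplasmic inhibitor that is made later than IκBα in the textbook sequence. Its WT arrays read 6.57, 6.05 and 6.05 in normal and 6.48, 6.16 and 5.92 in AAD medium, so that the groups overlapped and the change was -0.04 ± 0.17 (adjusted p = 0.909). In Atf4-/- they read 6.19, 6.01 and 6.03 and then 6.41, 6.73 and 6.64, with no overlap. The change there was 0.51 ± 0.17 (adjusted p = 0.103, or 0.006 with the replicate block). A second Nfkbie probe set, with group means from 4.44 to 4.79, was called higher in Atf4-/- (0.34 ± 0.09, adjusted p = 0.0416) and in the difference from WT (0.46 ± 0.12, adjusted p = 0.0245). In Cebpg-/- the change was 0.42 ± 0.17 (adjusted p = 0.0877, or 0.00559 with the replicate block), on arrays that overlapped. Its promoter stretch carries a κB match, as those of Nfkbia and Tnfaip3 do, and it was not called in WT, where those 2 were. Rela and Birc3, whose windows had no match, were called in WT as well. A link between a match and the response was not tested.

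Among the subunits, Rela encodes p65, the transactivating partner of the classical pair. It read 9.38, 9.44 and 9.41 on the WT arrays in normal medium and 9.88, 9.83 and 9.85 in AAD medium, a rise of 0.44 ± 0.05 (adjusted p = 1.31e-05). In Atf4-/- it read 10.27, 10.13 and 10.18 and then 10.14, 10.16 and 10.15, a change of -0.04 ± 0.05 (adjusted p = 0.776). Every Atf4-/- array, in either medium, lay above every WT array in AAD medium. Cebpg-/- arrays read 9.58, 9.59 and 9.74 and then 9.86, 9.90 and 9.93, a rise of 0.26 ± 0.05 (adjusted p = 0.00226).

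Relb and Nfkb2 encode the pair of the non-canonical branch. Relb read 6.79, 6.67 and 6.85 in WT in normal medium and 7.72, 7.73 and 7.83 in AAD medium, a rise of 0.99 ± 0.15 (1.99-fold, adjusted p = 7.68e-05). In Cebpg-/- it read 6.65, 6.61 and 6.89 and then 7.67, 7.39 and 7.55, a rise of 0.82 ± 0.15 (adjusted p = 0.000658). In Atf4-/- it read 7.25, 7.01 and 6.63 and then 7.21, 7.13 and 6.71, which overlapped almost fully (0.05 ± 0.15, adjusted p = 0.923). Nfkb2 went from between 6.89 and 7.06 to between 7.45 and 7.57 in WT, a rise of 0.53 ± 0.08 (adjusted p = 0.000163). In Cebpg-/- it rose by 0.41 ± 0.08 (adjusted p = 0.00244), and in Atf4-/- its arrays moved from between 7.14 and 7.21 to between 7.23 and 7.32 (0.09 ± 0.08, adjusted p = 0.685). A second Nfkb2 probe set was not called in WT (0.25 ± 0.11, adjusted p = 0.0945), so the rise of Nfkb2 rests on 1 probe set.

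Bcl3 and Nfkbiz encode IκB-type proteins that act in the nucleus on p50 or p52 dimers and can help to activate genes. Bcl3 read 5.74, 5.66 and 5.75 in WT in normal medium and 6.51, 6.21 and 6.10 in AAD medium, a rise of 0.56 ± 0.09 (adjusted p = 0.000286). In Cebpg-/- it read 5.21, 5.20 and 5.31 and then 5.93, 5.67 and 5.90, a rise of 0.59 ± 0.09 (adjusted p = 0.000253). In Atf4-/- it read 5.16, 5.31 and 5.34 and then 5.44, 5.55 and 5.52, without overlap (0.23 ± 0.09, adjusted p = 0.214). Bcl3 was the member called lower than WT in normal medium in both knockouts.

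Nfkbiz was called in both knockouts, in opposite directions. In WT it read 9.89, 9.81 and 9.86 and then 9.85, 9.73 and 9.67 (-0.11 ± 0.13, adjusted p = 0.639). In Atf4-/- it read 10.03, 10.16 and 10.10 and then 9.43, 9.75 and 9.54, a fall of 0.53 ± 0.13 that was called (adjusted p = 0.0329). In Cebpg-/- it read 9.57, 9.34 and 9.15 and then 10.12, 9.61 and 9.52, a rise of 0.40 ± 0.13 (adjusted p = 0.0442) on arrays that overlapped. The call in Atf4-/- was lost without any 1 of 5 of the 6 arrays compared (adjusted p = 0.0718 to 0.122; without Atf4-/- AAD replicate 2 it was kept). The call in Cebpg-/- was lost without Cebpg-/- AAD replicate 1 (0.21, adjusted p = 0.208), Cebpg-/- normal replicate 2 (0.39, adjusted p = 0.105) or normal replicate 3 (0.29, adjusted p = 0.177), and its adjusted p also passed 0.05 when some arrays of the other genotypes were left out. With the replicate block both were called (adjusted p = 0.000659 and 0.000848), and with the probe set means the fall in Atf4-/- was not (-0.49, adjusted p = 0.0584). The other 2 Nfkbiz probe sets were not called in Atf4-/- (adjusted p = 0.0858 and 0.171). In Cebpg-/- the call was also lost with only the groups compared (adjusted p = 0.172) and with quantile normalization (adjusted p = 0.062).

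In all, 1 of 9 was called under AAD in Atf4-/- (lower, where 2.03% of all genes fell, 2.67% rose and 4.7% were called) and 8 of 9 in Cebpg-/- (all higher, where 11.7% rose and 21.9% were called). Medians were 0.09 in Atf4-/- and 0.57 in Cebpg-/-, against 0.01 and -0.02 over all genes. With the replicate block, 3 of 9 were called in Atf4-/- (Nfkbie higher, Tnfaip3 and Nfkbiz lower), where 11.1% of all genes were, and all 9 in Cebpg-/-, where 34% were. The media did not overlap for 6 of 9 genes in Atf4-/-, against 21.1% of all genes, and for 7 of 9 in Cebpg-/-, against 38.3%.

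**Figure D2:**
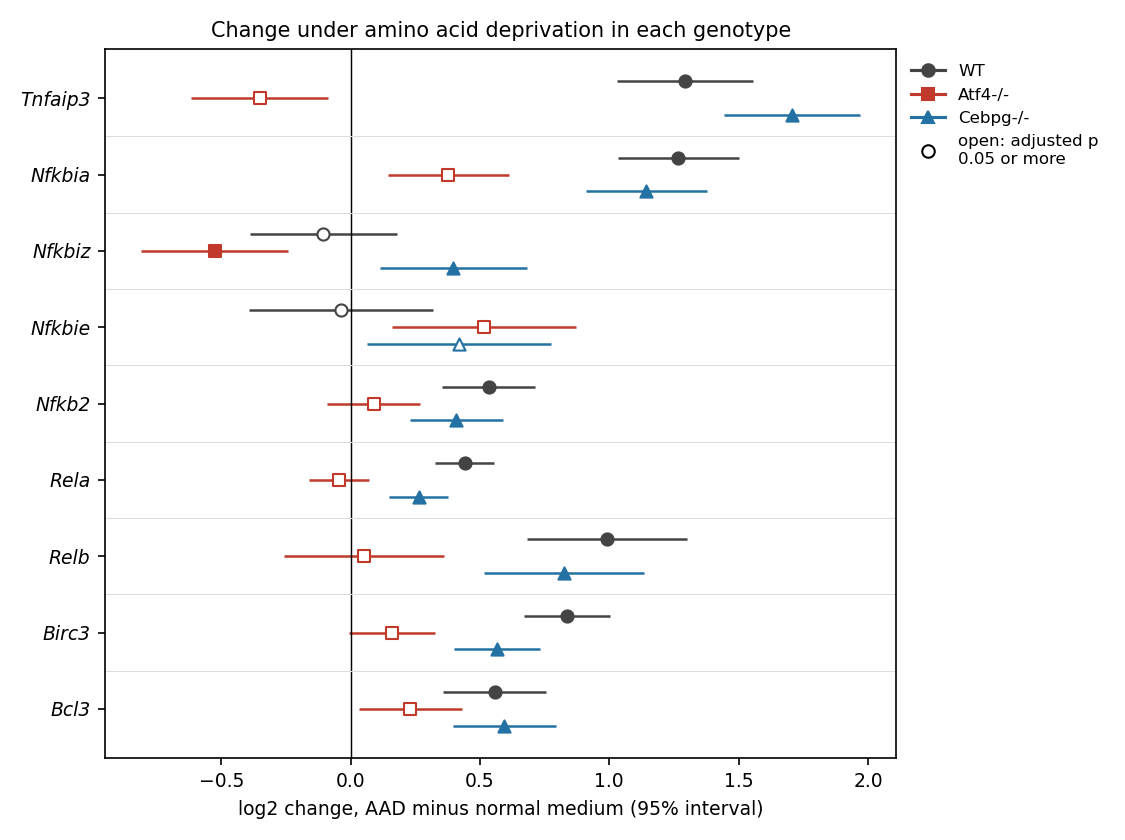
Log2 change from normal to AAD medium (horizontal axis) of each gene in WT, Atf4-/- and Cebpg-/- cells, with 95% intervals that are not adjusted for the number of genes. Filled symbols were called, and the Tnfaip3 symbols stand at 1.29 in WT, -0.35 in Atf4-/- and 1.71 in Cebpg-/-.

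The next question was whether the response itself depends on ATF4. The difference of the AAD response between Atf4-/- and WT was called for 6 of 9 genes, all lower in Atf4-/-, where 7.04% of all genes were lower and 12.8% were called. The median difference was -0.49, against 0.01 over all genes. Tnfaip3 differed most (-1.65 ± 0.18, adjusted p = 1.37e-05), followed by Relb (-0.94 ± 0.21, adjusted p = 0.00623) and Nfkbia (-0.89 ± 0.16, adjusted p = 0.00122). Birc3 (-0.68 ± 0.11), Rela (-0.49 ± 0.08) and Nfkb2 (-0.44 ± 0.12) were also lower. Both the Tnfaip3 probe sets (-1.65 and -0.65) and all 5 Nfkbia probe sets (-0.87 to -1.07) were called, against 11% of all probe sets tested. The lower responses thus included Nfkbia, the ubiquitin enzyme genes Tnfaip3 and Birc3, and 3 subunit genes.

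Of the 3 that did not pass, Nfkbiz stood at -0.42 ± 0.19 (adjusted p = 0.173), Bcl3 at -0.33 ± 0.13 (adjusted p = 0.13) and Nfkbie at 0.55 ± 0.24 (adjusted p = 0.151). With the replicate block all 9 were called, 8 lower and Nfkbie higher, where 11.7% of all genes were lower and 12.1% higher. The values added by the block were adjusted p = 0.0072 for Nfkbiz, 0.0495 for Bcl3 and 0.0122 for Nfkbie. The Nfkb2 call was lost without WT normal replicate 1 (-0.39, adjusted p = 0.0569) or WT AAD replicate 3 (-0.42, adjusted p = 0.0519), and the second Nfkb2 probe set was not called (-0.29, adjusted p = 0.251).

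Without C/EBPγ, a bZIP protein that can pair with ATF4, no difference from the WT response passed. By limma, 0 of 9 were called, where 0.226% of all genes were, and 4 of 9 had an unadjusted p under 0.05, against 6.94% of all genes. The 4 were Nfkbiz, Tnfaip3, Birc3 and Rela. The difference was 0.50 ± 0.19 for Nfkbiz (95% interval 0.10 to 0.90, adjusted p = 0.543) and 0.41 ± 0.18 for Tnfaip3 (0.04 to 0.79, adjusted p = 0.634). It was -0.27 ± 0.11 for Birc3 (-0.51 to -0.04) and -0.18 ± 0.08 for Rela (-0.34 to -0.02). The second Tnfaip3 probe set gave the opposite sign (-0.17 ± 0.14, limma adjusted p = 0.935). It rose by 0.53 in WT and by 0.36 in Cebpg-/-. The direction of the Tnfaip3 difference thus rests on 1 probe set. With the replicate block Nfkbiz was called (adjusted p = 0.0251) and Tnfaip3 was not (adjusted p = 0.0601), where 1.38% of all genes were called. The intervals leave room for differences of this size, so a missed threshold does not show equal responses in Cebpg-/- and WT.

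**Figure D3:**
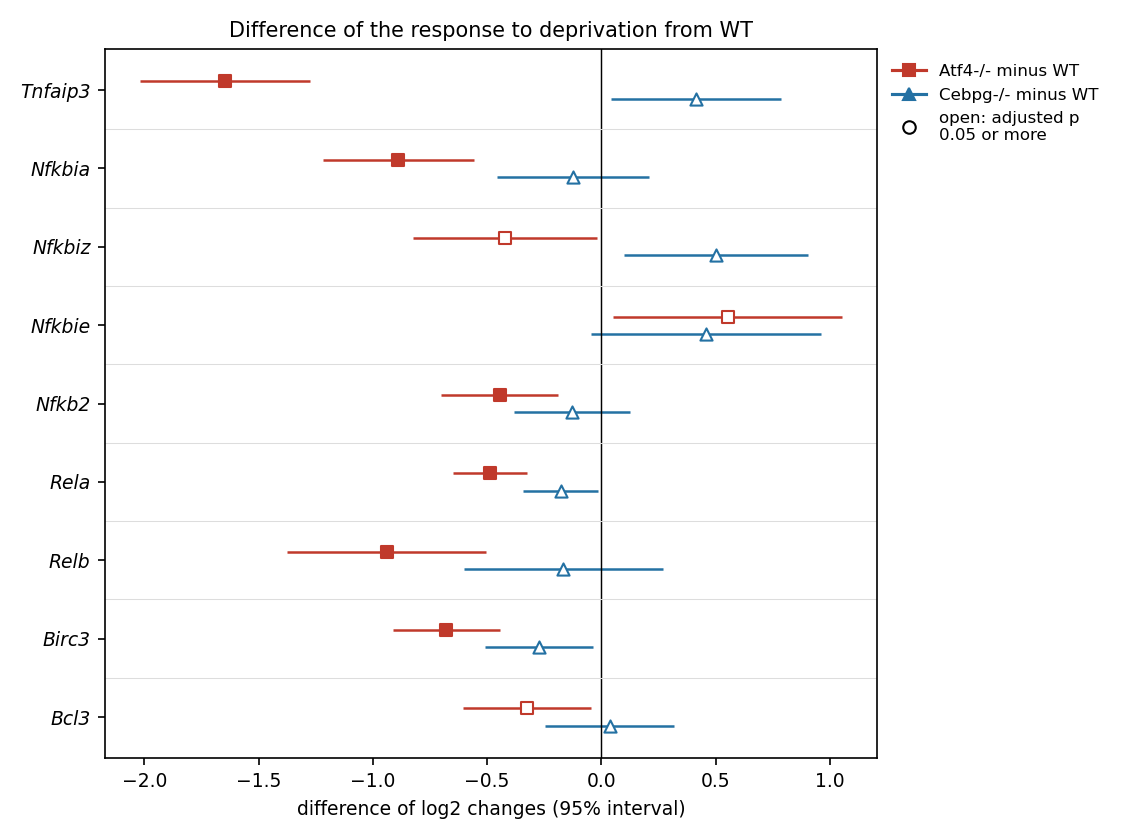
Difference of the log2 change under AAD between each knockout and WT (horizontal axis) for each gene, with unadjusted 95% intervals. Squares are Atf4-/- and triangles Cebpg-/-, filled where called. The 6 filled squares lie between -1.65 and -0.44, and no triangle is filled.

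The responses of the 2 knockouts were also set against each other (the WT arrays enter only the shared estimate of the spread). The response in Atf4-/- was lower than in Cebpg-/- for 6 of 9 genes, where 3.69% of all genes were lower and 5.3% were called. Tnfaip3 differed by -2.06 ± 0.18 (adjusted p = 2.93e-06), Nfkbiz by -0.92 ± 0.19 (adjusted p = 0.00753) and Nfkbia by -0.77 ± 0.16 (adjusted p = 0.00723). Relb (-0.77 ± 0.21, adjusted p = 0.0387), Birc3 (-0.41 ± 0.11, adjusted p = 0.0444) and Rela (-0.31 ± 0.08, adjusted p = 0.0269) were close to the threshold. All of these 3 lost their call without Atf4-/- normal replicate 1, Atf4-/- AAD replicate 2 or 3, or Cebpg-/- normal replicate 1 or 2, which left 3 of 9. Birc3 also lost its call without any 1 of the 6 WT arrays (adjusted p = 0.0507 to 0.0581), and with only the 4 groups compared in the fit 3 of 9 were called. With the replicate block Bcl3 was called as well (-0.36 ± 0.11, adjusted p = 0.0491), where 13.3% of all genes were called. Both comparisons of responses use the same Atf4-/- arrays. Cebpg itself was lower in Atf4-/- than in WT in normal (-1.36 ± 0.11, limma adjusted p = 5.55e-08) and AAD medium (-2.42 ± 0.11, adjusted p = 1.17e-10). Under AAD it rose by 1.06 ± 0.11 in WT and was not called in Atf4-/- (0.003 ± 0.11). The Atf4-/- cells thus had less Cebpg mRNA as well, and its part in their responses was not tested.

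Levels were then compared between genotypes within a medium. In normal medium Rela was higher in Atf4-/- than in WT by 0.78 ± 0.05 (1.72-fold, adjusted p = 1.05e-08) and Nfkbia by 0.30 ± 0.11 (adjusted p = 0.0309), while Bcl3 was lower (-0.45 ± 0.09, adjusted p = 0.000769). These 3 of 9 compare with 51.5% of all genes called, 30.2% higher and 21.4% lower, so the members' share lies below that of all genes. The Nfkbia call was lost without WT normal replicate 2 or 3 or Atf4-/- normal replicate 1 or 3 (adjusted p = 0.0728 to 0.106), with the random replicate block (adjusted p = 0.0613), with the mean of its probe sets (0.22, adjusted p = 0.0982) and on its probe set with the largest variance (0.11, adjusted p = 0.465). In AAD medium 6 of 9 were lower in Atf4-/- and Rela was higher (0.30 ± 0.05, adjusted p = 2e-04), where 22.9% of all genes were lower, 31.4% higher and 54.3% called. The lower genes were Tnfaip3 (-1.41 ± 0.12), Bcl3 (-0.77 ± 0.09), Relb (-0.74 ± 0.15), Birc3 (-0.66 ± 0.08), Nfkbia (-0.59 ± 0.11) and Nfkb2 (-0.27 ± 0.08). Nfkbie lay higher in Atf4-/- and just missed the threshold (0.41 ± 0.17, adjusted p = 0.0512). It was called under several alternatives, among them the random replicate block (adjusted p = 0.0377) and the mean of its probe sets (0.32, adjusted p = 0.0294). Of 12 macrophage markers, 7 were called higher in Atf4-/- and 1 lower in normal medium, and 10 higher and 1 lower in AAD medium. Of 10 fibroblast markers 5 were lower in Atf4-/- and 2 higher in each medium (median -0.48 in normal and -0.32 in AAD medium). Their part in these level differences was not tested.

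In Cebpg-/- cells in normal medium Tnfaip3 was lower than in WT by -0.89 ± 0.12 (adjusted p = 0.000106), Nfkbiz by -0.50 ± 0.13 (adjusted p = 0.013) and Bcl3 by -0.48 ± 0.09 (adjusted p = 0.00155). Rela was higher by 0.22 ± 0.05 (adjusted p = 0.00675). These were 4 of 9, where 23.3% of all genes were called, 12.3% higher and 11.1% lower. In AAD medium Tnfaip3 (-0.48 ± 0.12), Bcl3 (-0.44 ± 0.09) and Birc3 (-0.41 ± 0.08) were lower, 3 of 9 where 13.4% of all genes were lower and 29.5% were called. Macrophage markers were higher in Cebpg-/- too, 9 of 12 in normal and 11 of 12 in AAD medium. Of the fibroblast markers 6 of 10 were lower in normal and 5 of 10 in AAD medium (median -0.56 and -0.59), and the part of either list was not tested. Without Cebpg-/- normal replicate 3 the Nfkbiz call was lost (adjusted p = 0.0753), and without Cebpg-/- AAD replicate 1 Nfkbia and Nfkb2 were called lower in AAD medium as well, which made 5 of 9. The Nfkbiz probe sets disagreed on levels: on the probe set with the largest variance Nfkbiz was lower in Atf4-/- in normal medium (-0.44, adjusted p = 0.00683) and in Cebpg-/- in AAD medium (-0.54, adjusted p = 0.00424), where the brightest gave 0.25 and 0.00. In AAD medium that probe set was also lower in Atf4-/- (-0.83, adjusted p = 2.99e-05), where the brightest gave -0.18 and was not called, and with it, or with the mean of the probe sets, all 9 members were called there.

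**Figure D4:**
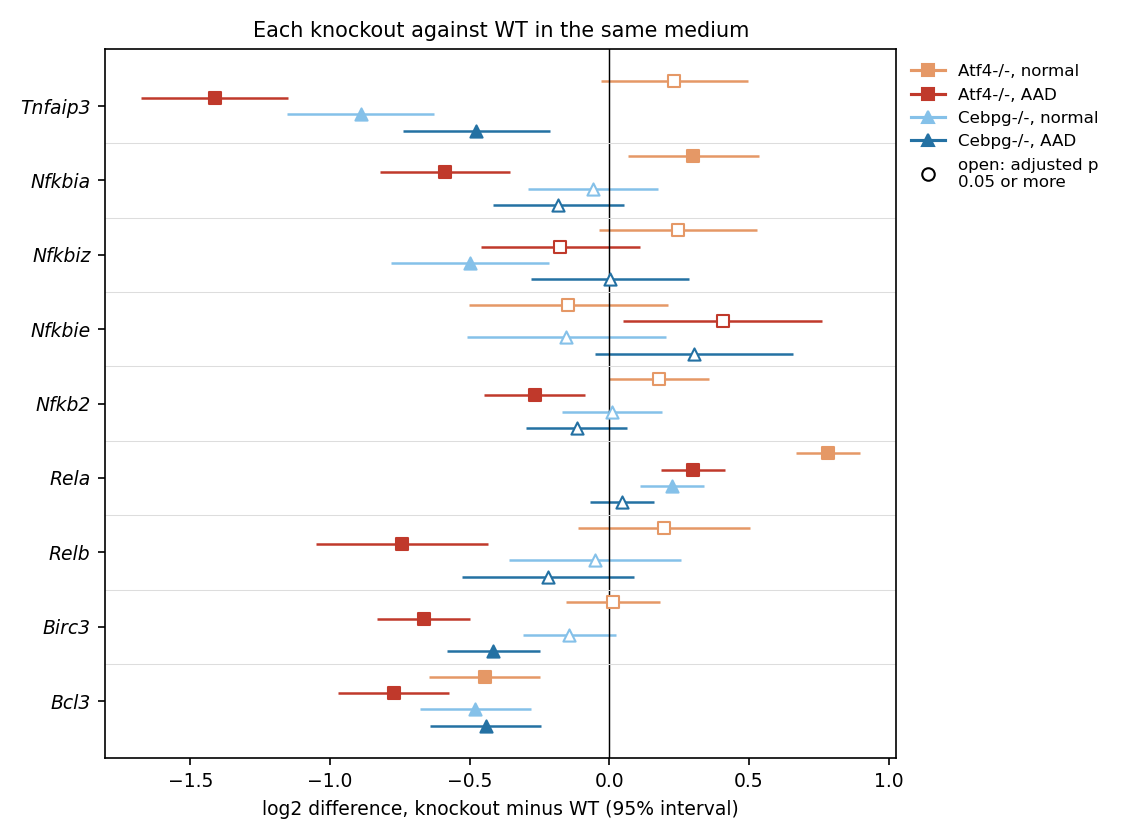
Log2 difference of each knockout from WT in the same medium (horizontal axis) for each gene, with unadjusted 95% intervals. Light symbols are normal and dark symbols AAD medium, filled where called. Rela in Atf4-/- lies to the right of 0 in both media (0.78 and 0.30), and Tnfaip3 in Atf4-/- moves from 0.23 to -1.41.

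The rest of the pathway was described from lists of its receptors, kinases, further inhibitors and targets. Of the receptors and ligands, 4 of 16 rose in WT and 12 did not pass, at a median of 0.16, where 14.3% of all genes rose and 28.2% were called, so the share called was near that of all genes. The bacterial pattern receptor genes Tlr2 (1.12 ± 0.17) and Tlr4 (1.11 ± 0.11) rose most. Tlr2 was also called higher in Atf4-/- (0.68 ± 0.17, adjusted p = 0.0294), and the difference of its response from WT did not pass (-0.45 ± 0.24, adjusted p = 0.267). The response of Tlr4 was lower in Atf4-/- (-0.84 ± 0.16, adjusted p = 0.00188), as was that of the TWEAK receptor gene Tnfrsf12a (-0.39 ± 0.08, adjusted p = 0.00372). These were the only 2 of 16 called for this difference, at a median of -0.02. Over all genes 7.04% were lower and 12.8% were called, so the share called was again near that of all genes. Tlr4 read 5.63, 5.98 and 5.79 in WT in normal medium and 6.90 ± 0.09 on average in AAD medium, the lowest array at 6.82, against 5.32, 5.48 and 5.51 and then 5.53, 5.81 and 5.76 in Atf4-/-. The media did not overlap in either genotype, with the wider gap in WT.

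Of 19 adaptor and kinase genes tested, 6 rose in WT, 2 fell and 11 did not pass, at a median of 0.11, where 14.3% of all genes rose and 13.9% fell. Tbk1, an IKK-related kinase gene, rose by 0.71 ± 0.05 and Traf2, a receptor adaptor and partner of the Birc3 product, by 0.63 ± 0.07. Traf5 (-0.37 ± 0.10) and Myd88 (-0.33 ± 0.08), the adaptor of most Toll-like receptors, fell. In Atf4-/- none rose and 2 fell, where 2.67% of all genes rose and 2.03% fell. The responses of Tbk1 (-0.85 ± 0.07, adjusted p = 8.34e-07) and Traf2 (-0.64 ± 0.10, adjusted p = 0.000368) were lower than in WT. They were among 4 of 19 with a lower response, where 7.04% of all genes were lower. Chuk, Traf3, Ripk1 and Irak4 were not analysed here.

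Among 14 further subunits, inhibitors and deubiquitinases, 5 rose in WT, 1 fell and 8 did not pass, at a median of 0.16, where 14.3% of all genes rose and 13.9% fell. Zfp36, whose product destabilises cytokine mRNAs, rose by 1.05 ± 0.13 and the subunit gene Rel by 0.94 ± 0.15, while Otulin, a linear-ubiquitin protease gene, fell (-0.31 ± 0.09). Of the 14, 3 had a lower response in Atf4-/- than in WT and 1 a higher one, where 7.04% of all genes were lower and 5.73% higher. It was lower for Zfp36 (-1.31 ± 0.18, adjusted p = 0.000166) and Rel (-1.002 ± 0.22, adjusted p = 0.0055), and higher for Commd1 (0.30 ± 0.09, adjusted p = 0.0319). In its responses Rel thus moved as Rela, Relb and Nfkb2 did, so that all 4 subunit genes measured rose in WT and had a lower response in Atf4-/-. For Nfkb2 this rests on 1 probe set. The level of Rela, unlike its response, was higher in Atf4-/- than in WT in both media.

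The known target genes moved in part with the set. Of 28 tested, 14 rose in WT, 2 fell and 12 did not pass, at a median of 0.47, where 28.2% of all genes were called. In Atf4-/- 3 rose, 1 fell and 24 did not pass (median 0.07), where 2.67% of all genes rose and 2.03% fell. In Cebpg-/- 12 rose and 16 did not pass (median 0.26), where 11.7% of all genes rose and 21.9% were called. The chemokine genes Cxcl2 (3.44 ± 0.19) and Ccl2 (1.57 ± 0.21) rose most in WT, and Bcl2l1 (-0.34 ± 0.10), a survival gene, and Sod2 (-0.17 ± 0.05), for mitochondrial superoxide dismutase, fell. Cxcl2 started at 4.27 ± 0.26, under 4.65, and the size of a change from so dim a level is uncertain.

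The targets' responses in Atf4-/- were then set against those in WT. The response was lower in Atf4-/- for 9 of 28 and higher for 2, at a median of -0.27, where 7.04% of all genes were lower and 5.73% higher. Ccl2 (-1.37 ± 0.30, adjusted p = 0.00667) had a lower response, and Tnfaip2 (0.90 ± 0.25, adjusted p = 0.0248) and Sod2 (0.26 ± 0.08, adjusted p = 0.039) higher ones. The level of Tnfaip2 was lower in Atf4-/- than in WT in normal (-1.88 ± 0.18) and AAD medium (-0.98 ± 0.18). That of Ccl2 was lower too (-3.54 ± 0.21 and -4.91 ± 0.21). Sod2 fell in WT and was not called under AAD in Atf4-/- (0.09 ± 0.05, adjusted p = 0.474). The lower count includes Cxcl2 (-1.12 ± 0.27, adjusted p = 0.0106), which was under 4.65 in normal medium in all 3 genotypes and passed the filter only through AAD medium, so the difference of its responses rests on starts too dim to measure. In AAD medium Cxcl2 read 7.94, 7.87 and 7.34 in WT. Cxcl2 read 4.20, 4.23 and 4.44 in Atf4-/- in normal medium and 6.23, 6.78 and 6.82 in AAD medium, a rise of 2.32 ± 0.19 that was called (adjusted p = 3.15e-06). This rise also starts under 4.65, in a gene that passed the filter only through AAD medium. It is therefore not set against the responses of the members. In Cebpg-/- Cxcl2 rose by 4.74 ± 0.19, from between 4.30 and 4.63 to between 8.92 and 9.45.

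**Figure D5:**
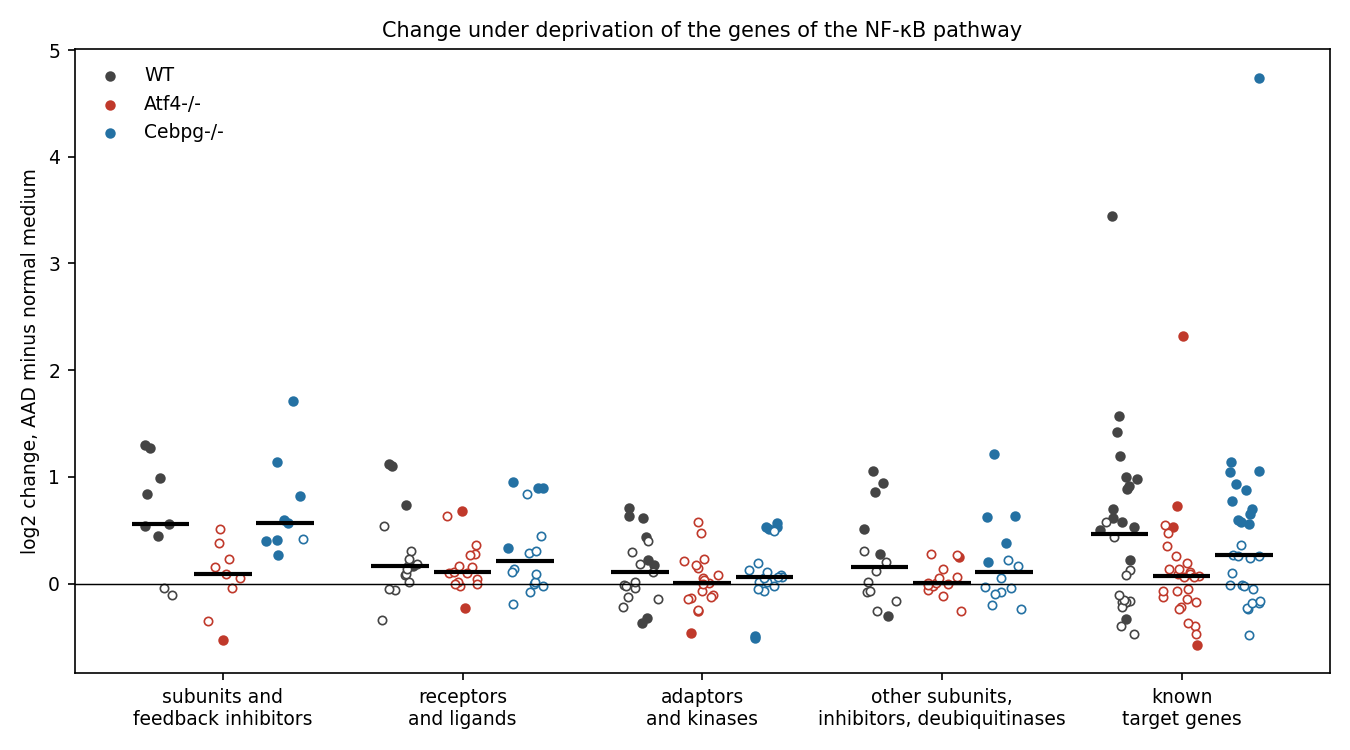
Log2 change under AAD (vertical axis) of each tested gene of the set and of 4 lists of the pathway, in WT, Atf4-/- and Cebpg-/- cells. Points are genes, filled where called, with sideways scatter for legibility, and bars are medians. The set's medians are 0.56 in WT, 0.09 in Atf4-/- and 0.57 in Cebpg-/-, and the topmost point is Cxcl2 in Cebpg-/- (4.74).

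Genes that followed the members most closely were found for those whose group means spanned at least 1 log2 unit. These were Tnfaip3 (2.18), Nfkbia (1.32), Relb (1.04) and Bcl3 (1.04). Over the 18 arrays, which share the 6 groups, the 3 highest Pearson correlations with Tnfaip3 were those of Zfp330 (0.95), Spty2d1 (0.95) and Dusp16 (0.94). For Nfkbia they were Zfp507, Clk1 and Stk17b (all 0.96), for Relb Pcf11, Adnp2 and Rabggtb (all 0.95), and for Bcl3 Lyst, Gga2 and Pde4b (all 0.94). Between members the highest value was that of Nfkbia with Nfkb2 (0.93), and Rela with Bcl3 (-0.17) and Nfkbiz with Nfkbie (-0.13) were under 0.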

How the data were processed

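Per the submitters' processing notes the authors made the deposited log2 values with RMA (version not given), and they were used as deposited. Of 45101 probe sets, 34958 had 1 gene symbol in the platform annotation, and symbols were updated through Entrez identifiers (34754 matched, GRCm38.p6 table). Genes were kept if at least 1 group averaged 4.65 or more, the 40th percentile of the table. Limma 3.58.1 in R 4.3.3 was fitted over the 13728 genes and 18 arrays with a mean per group (12 residual degrees of freedom) and was tested on simulated data. The members and the lists were chosen with earlier results of these data known.

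Named were all members and, from each of the 4 pathway lists, the 2 largest called rises and falls in WT and in the difference of the response between Atf4-/- and WT. Genes with the highest correlations were named for members spanning 1 log2 unit.

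Replicate numbers pair the media within a genotype: residuals of arrays of the same genotype and number correlated at 0.30 to 0.69 in 9 of 9 pairs, and those of other numbers at -0.56 to 0.09. The replicate block is given where it changed a call. No 2 arrays were identical.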

Additional observations from a re-analysis of the deposited data

Results flagged for a closer look

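The response to AAD differed between genotypes by the interaction test of limma for these genes, all described above. Lower in Atf4-/- than in WT were Tnfaip3 (-1.65), Relb (-0.94), Nfkbia (-0.89), Birc3 (-0.68), Rela (-0.49) and Nfkb2 (-0.44), and of the pathway lists Ccl2 (-1.37), Zfp36 (-1.31), Cxcl2 (-1.12, from starts under the level of dim genes), Rel (-1.002), Tbk1 (-0.85), Tlr4 (-0.84), Traf2 (-0.64) and Tnfrsf12a (-0.39). Higher in Atf4-/- were Tnfaip2 (0.90), Commd1 (0.30) and Sod2 (0.26). Lower in Atf4-/- than in Cebpg-/- were Tnfaip3 (-2.06), Nfkbiz (-0.92), Nfkbia (-0.77), Relb (-0.77), Birc3 (-0.41) and Rela (-0.31).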

How the results depend on the processing

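The 7 calls in WT and the direction of all 9 members in the difference between Atf4-/- and WT were the same under every alternative run, which were 11 other settings and the omission of each of 18 arrays. Under AAD in Atf4-/- the count of members called was 1, and 3 with the replicate block, 4 with the replicate block as a random effect, 2 with a replicate block by number alone, 3 with only the groups compared, 2 with the mean of all probe sets, and 0 to 2 without 1 array (0 without Atf4-/- normal replicate 1, 2 or 3 or AAD replicate 1 or 3, and 2 without Cebpg-/- AAD replicate 1 or 3). For the difference between Cebpg-/- and WT it was 1 in place of 0 with the replicate block. For the difference between Atf4-/- and WT it was 6, all 9 with the fixed or random replicate block, and 5 to 6 without 1 array. Between the knockouts it was 6, and 3 with only the groups compared, and 3 to 6 without 1 array. There the random block added Nfkb2 (adjusted p = 0.0434) and Bcl3 (adjusted p = 0.0304). Birc3 lost its call with the block by number alone, no filter on dim genes, the probe set mean or the probe set with the largest variance (adjusted p = 0.0524 to 0.659). The count was 2 to 5 in place of 3 for Atf4-/- against WT in normal medium (5 without Cebpg-/- AAD replicate 1) and 3 to 5 in place of 3 for Cebpg-/- against WT in AAD medium. For Atf4-/- against WT in AAD medium it was 7 to 8 in place of 7 without 1 array. There it was 9 with the mean of all probe sets or the probe set with the largest variance. On the probe set with the largest variance Nfkbiz turned to -0.44 in Atf4-/- in normal medium and to -0.54 in Cebpg-/- in AAD medium against WT. Of the other values of single members, 2453 kept their side of the threshold, 72 lost a call and 47 gained one.

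Over all genes, the replicate block raised the calls from 645 to 1523 in Atf4-/- (1633 as a random block), from 3013 to 4663 in Cebpg-/- (4739), from 1752 to 3270 for Atf4-/- minus WT (3306), from 31 to 189 for Cebpg-/- minus WT (221) and from 728 to 1824 between the knockouts (1912). In Atf4-/- 329 were called with only its groups. For Cebpg-/- minus WT quantile normalization gave 55 and a variance trend 56. Without 1 array the counts ran from 334 upward in Atf4-/-, from 8 to 51 for Cebpg-/- minus WT, and stood at 2081 in place of 3204 for Cebpg-/- against WT in normal medium without Cebpg-/- normal replicate 3. The causes were not tested.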

Other observations

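Levels of the known target genes were also set against WT. In AAD medium 20 of 28 were lower in Atf4-/-, 2 higher and 6 did not pass, at a median of -0.69, where 22.9% of all genes were lower. In normal medium 12 of 28 were lower and 3 higher (median -0.27), where 21.4% were lower. Ccl2 read 8.92, 8.99 and 9.13 in WT in normal medium and 5.51, 5.58 and 5.35 in Atf4-/-. In Cebpg-/- 6 of 28 were higher and 6 lower in AAD medium (median 0.04), where 16.1% and 13.4% of all genes were.

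Cebpg-/- AAD replicate 1 was the highest of its group for 7 of 9 members, and WT AAD replicate 1 likewise for 7 of 9. Atf4-/- AAD replicate 1 was the lowest of its group for 7 of 9. These ranks were not counted over all genes, and members correlate with each other (Nfkbia with Nfkb2, 0.93). The counts therefore describe only the members on these arrays.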
